A study of Homo sapiens with 24 samples.

Results

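The 10 genes described here are the 7 APOBEC3 cytidine deaminases (APOBEC3A, APOBEC3B, APOBEC3C, APOBEC3D, APOBEC3F, APOBEC3G and APOBEC3H) and 3 further restriction factors, SAMHD1, TRIM5 and TRIM22. They were chosen by symbol, with earlier results of these data known, and all 10 were found among the 58735 genes of the count tables. RNA was measured in HCT116, a human colorectal carcinoma line, in 24 libraries that form 8 groups of 3. Its tagged derivatives carry an auxin-inducible degron (AID), by which auxin triggers destruction of a protein, on 1 or both of the proteins UHRF1 and DNMT1. UHRF1 recruits DNMT1, and DNMT1 copies DNA methylation onto newly made strands.

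The WT line is the untagged parent. The single-tag lines are UHRF1-AID and DNMT1-AID, the line with both tags is the compound one, UHRF1-AID/DNMT1-AID, and all 4 lines carry a doxycycline-inducible OsTIR1, the ubiquitin ligase subunit that auxin directs to the tag. Day 0 is before auxin. For day 4, cells of all 4 lines were given 2 μg/mL doxycycline with 20 μM auxinole, an inhibitor of OsTIR1, for 1 day, and then doxycycline with 500 μM auxin for 4 days. The WT day 4 group therefore received the same agents as the tagged lines. According to the study's methods, the tagged lines were made as separate clones that served as biological replicates. The labels tie no library to a clone, and what separates the 3 WT libraries is not stated there, so p-values measure the spread between these libraries.

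Restriction factors are host proteins that block viruses and mobile elements. APOBEC3 enzymes deaminate cytosine in single-stranded DNA and are known for editing the cDNA of retroviruses and retrotransposons, SAMHD1 hydrolyses the deoxynucleotides that reverse transcription needs, TRIM5 binds incoming retroviral capsids, and TRIM22 is a related ubiquitin ligase with antiviral activity. Several of them are interferon-stimulated genes, and in the body many are best known from leukocytes.

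Libraries held from 15824804 to 25073821 gene counts. Levels are normalised read counts (CPM, counts scaled to library size with edgeR's TMM factors). A call required a log2 fold change beyond 1 in either direction and an adjusted p below 0.05 by the quasi-likelihood test of edgeR, where p was adjusted by the Benjamini-Hochberg method over all genes tested. SE here is the size of the log2 fold change divided by the square root of that test's F value. It was not fitted directly and is not read as precision where counts are near 0. The tags act on protein, and the transcripts of the tagged genes remained present. DNMT1 averaged 15.4 CPM in DNMT1-AID and 12.6 CPM in the compound line at day 4, against 31.5 CPM in WT. UHRF1 averaged 51.6 CPM in UHRF1-AID cells against 25.6 CPM in WT. Their levels already differed before auxin. At day 0 DNMT1 averaged 44.5 CPM in DNMT1-AID and 65.4 CPM in the compound line, against 142 CPM in WT. UHRF1 then averaged 169 CPM in UHRF1-AID and 148 CPM in the compound line, against 73.5 CPM in WT. No test of these 2 genes is given. Of 8 epithelial markers, 6 to 7 were over 1 CPM in each group, while CDX1 was at 0 in all 4 lines at day 0. Spike-in counts were present in 9 libraries, those of WT, DNMT1-AID and the compound line at day 4, and these 9 carry another alignment folder in their headers than the other 15. The comparison of UHRF1-AID with WT cells at day 4 therefore crosses the folders, as do those of UHRF1-AID with DNMT1-AID cells and with the compound line at day 4, and the changes over 4 days in WT, DNMT1-AID and compound cells, so that each day effect set against WT contains such a change. In these comparisons folder and group cannot be told apart. The comparisons of DNMT1-AID cells and of the compound line with WT at day 4, the change over 4 days in UHRF1-AID cells and the day 0 comparisons lie within 1 folder. In 3 libraries, WT day 0 replicate 3 and DNMT1-AID day 0 replicates 1 and 2, long genes were lower than in the others of that day, with rank correlations to gene length between -0.275 and -0.233 across 15699 genes. At day 4 the correlation lay between -0.187 and -0.154 in the compound line, and was 0.299, -0.0882 and 0.234 in UHRF1-AID replicates 1, 2 and 3. Libraries of WT and DNMT1-AID on that day lay between -0.109 and 0.126. The part of gene length in the comparisons was not tested.

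Promoter sequence is shown for the 3 genes with an entry in the RefSeq promoter table (GRCh38.p14), since these lines differ in the machinery that keeps CpG dinucleotides methylated. Each runs from 250 bases before the start site to 50 bases after it, 5′ to 3′ on the gene's strand, with CpG in capitals.
SAMHD1, chr20:36951659-36951958, minus strand: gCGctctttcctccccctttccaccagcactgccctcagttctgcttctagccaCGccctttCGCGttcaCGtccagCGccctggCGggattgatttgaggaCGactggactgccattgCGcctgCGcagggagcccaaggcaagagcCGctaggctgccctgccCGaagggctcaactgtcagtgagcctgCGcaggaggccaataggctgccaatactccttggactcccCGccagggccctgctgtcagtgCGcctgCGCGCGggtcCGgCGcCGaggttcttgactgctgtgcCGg
TRIM5, chr11:5685025-5685324, minus strand: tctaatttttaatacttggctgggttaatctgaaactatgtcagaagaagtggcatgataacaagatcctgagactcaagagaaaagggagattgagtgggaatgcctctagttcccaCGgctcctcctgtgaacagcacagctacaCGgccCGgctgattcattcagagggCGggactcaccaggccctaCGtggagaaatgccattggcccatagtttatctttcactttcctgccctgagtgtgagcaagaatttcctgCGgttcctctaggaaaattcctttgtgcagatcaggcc
APOBEC3H, chr22:39096994-39097293, plus strand: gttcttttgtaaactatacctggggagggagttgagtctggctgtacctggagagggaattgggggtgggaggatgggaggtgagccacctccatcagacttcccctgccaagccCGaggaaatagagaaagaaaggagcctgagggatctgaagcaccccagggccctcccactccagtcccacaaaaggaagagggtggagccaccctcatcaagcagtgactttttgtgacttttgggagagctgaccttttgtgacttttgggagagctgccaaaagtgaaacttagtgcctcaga
The SAMHD1 window held 22 CpG with a G and C content of 65.7%, more CpG than 62.3% of the 35116 promoters in the table, whose median was 14. The TRIM5 window held 6 CpG, more than 33.7% of promoters. The APOBEC3H window held 1 CpG, more than 3.96% of them. On either strand the core of the interferon response element, GAAANNGAA, was found once in the TRIM5 window, 26 bases before the start site, and in neither of the other 2, while 8.11% of all promoters held it. No match to TTCNNNGAA (held by 7.66% of promoters), to the NF-kappaB consensus (11.3%), to the E2F forms TTTCCCGC or TTTGGCGC (2.27%) or to TTTGAA (15.2%) was found in the 3 windows. A match is a description of the letters, not of a bound site.

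SAMHD1 (ENSG00000101347, chromosome 20, 36889773 to 36951901 on the minus strand of hg38) had day 4 levels in all 3 tagged lines that lay above those of every WT library. At day 0 the 12 libraries of the 4 lines lay close together, between 35.8 and 46.2 CPM. In WT cells at day 4 the 3 libraries held 56.5, 60.0 and 46.8 CPM. The level was 127, 190 and 213 CPM in UHRF1-AID cells, 173, 91.8 and 136 CPM in DNMT1-AID cells, and 211, 174 and 132 CPM in the compound line. No day 4 library of a tagged line fell within the WT range, and the tagged lines overlapped with each other.

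Against WT at day 4, SAMHD1 rose by 1.73 (SE 0.20) on the log2 scale in UHRF1-AID cells (edgeR adjusted p = 0.00078), by 1.30 (SE 0.25) in DNMT1-AID cells (adjusted p = 0.032) and by 1.67 (SE 0.19) in the compound line (adjusted p = 0.00025). These 3 comparisons share the WT libraries. The first and last call held when each library was left out in turn. In DNMT1-AID cells the adjusted p was 0.121 without WT day 4 replicate 1, 0.0666 without WT day 4 replicate 2 and 0.124 without DNMT1-AID day 4 replicate 3. WT cells themselves gained 0.46 (SE 0.12, adjusted p = 0.018) over the 4 days, a value that missed the fold threshold, and its adjusted p passed 0.05 without WT day 0 replicate 1 (0.0522) or 2 (0.0658) and without WT day 4 replicate 1 (0.0664) or 2 (0.0771). When the change over 4 days was compared with that of WT in 1 fit of all 24 libraries, SAMHD1 gained 1.69 more in UHRF1-AID cells (SE 0.28, edgeR adjusted p = 0.0013), 1.28 more in DNMT1-AID cells (SE 0.28, adjusted p = 0.048) and 1.53 more in the compound line (SE 0.28, adjusted p = 0.0014). The DNMT1-AID value was past the threshold in only 3 of its 12 leave-one-out fits, those without WT day 0 replicate 3, DNMT1-AID day 0 replicate 3 or DNMT1-AID day 4 replicate 2, and reached an adjusted p of up to 0.147 in the other 9, which left out any other library of the 2 lines.

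Exons of SAMHD1 share 1159 bases, 10.3% of its exon length, with TLDC2 on the opposite strand, and whether the counting used strand is not given in the sources used here. TLDC2 was itself called higher in all 3 tagged lines at day 4. It averaged 0.0214 CPM in WT, 3.30 CPM in UHRF1-AID, 1.48 CPM in DNMT1-AID and 3.13 CPM in the compound line, small against the SAMHD1 level of 54.4 to 176 CPM in the same groups. Reads from the shared bases cannot be told apart without strand.

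TRIM5 (ENSG00000132256, chromosome 11, 5663557 to 5938619 on the minus strand) was higher at day 4 than at day 0 in every line, WT included. Its day 0 libraries lay between 11.7 and 16.4 CPM in all 4 lines. At day 4 the WT libraries held 27.3, 23.2 and 26.7 CPM, UHRF1-AID libraries 31.1, 45.3 and 39.4 CPM, DNMT1-AID libraries 38.3, 29.7 and 34.9 CPM, and UHRF1-AID/DNMT1-AID libraries 47.6, 51.7 and 37.7 CPM. Each tagged line lay wholly above WT at day 4, and each line lay wholly above its own day 0. Over the 4 days the log2 change was 0.87 (SE 0.15, edgeR adjusted p = 0.0032) in WT, 1.42 (SE 0.16, adjusted p = 0.00015) in UHRF1-AID, 1.27 (SE 0.16, adjusted p = 0.00022) in DNMT1-AID and 1.59 (SE 0.11, adjusted p = 1.0e-09) in the compound line, and the last 3 are calls.

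Against WT at day 4 TRIM5 passed the adjusted p but not the fold threshold, with log2 differences of 0.62 (SE 0.16, edgeR adjusted p = 0.030) in UHRF1-AID and 0.83 (SE 0.13, adjusted p = 3.1e-05) in the compound line. It was 0.42 (SE 0.13, adjusted p = 0.062) in DNMT1-AID cells. The UHRF1-AID value lost its adjusted p without WT day 4 replicate 1 (0.0784), 2 (0.119) or 3 (0.0606) or UHRF1-AID day 4 replicate 3 (0.11). The gain over 4 days in the compound line exceeded that of WT by 0.71 (SE 0.21, edgeR adjusted p = 0.033). That excess missed the adjusted p threshold in 7 of 12 leave-one-out fits, without WT day 0 replicate 1 (0.0578) or 3 (0.0652), without UHRF1-AID/DNMT1-AID day 0 replicate 1 (0.0701) or 3 (0.0727), without WT day 4 replicate 2 (0.0949), and without UHRF1-AID/DNMT1-AID day 4 replicate 1 (0.0776) or 2 (0.0816).

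TRIM22 (ENSG00000132274, chromosome 11, 5689689 to 5737089 on the plus strand) lies within the span of TRIM5 on the opposite strand, and was near the limit of detection at day 0. The 3 WT day 0 libraries held 4, 3 and 2 reads, and a count of 3 equals between 0.119 and 0.198 CPM in these libraries. At day 4 the counts were 5, 4 and 8 in WT, 19, 92 and 51 with UHRF1-AID, 36, 36 and 80 with DNMT1-AID and 159, 88 and 49 in the compound line. All 9 libraries of tagged lines lay above the WT libraries, with a wide spread within each line. The mean level was 0.352 ± 0.128 CPM in WT, 2.68 ± 1.99 CPM in UHRF1-AID, 3.21 ± 1.80 CPM in DNMT1-AID and 6.21 ± 3.51 CPM in the compound line (SD, n = 3).

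Against WT at day 4 the log2 fold change of TRIM22 was 2.93 (SE 0.66, edgeR adjusted p = 0.018) in UHRF1-AID, 3.16 (SE 0.49, adjusted p = 0.00093) in DNMT1-AID and 4.12 (SE 0.53, adjusted p = 0.00012) in the compound line. The first was lost without WT day 4 replicate 1 (adjusted p = 0.0755) or 2 (0.0775). The other 2 were called in 6 of 6 leave-one-out fits. From the summed counts alone the ratio to WT was 7.40 (95% exact interval 4.48 to 13.0), 8.92 (5.39 to 15.7) and 17.6 (10.8 to 30.6), intervals that cover counting error only. Over 4 days TRIM22 rose by 3.41 (SE 0.75, adjusted p = 0.0048), 3.23 (SE 0.53, adjusted p = 0.00087) and 3.10 (SE 0.43, adjusted p = 4.9e-05) in the 3 tagged lines in the same order.

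**Figure D1:**
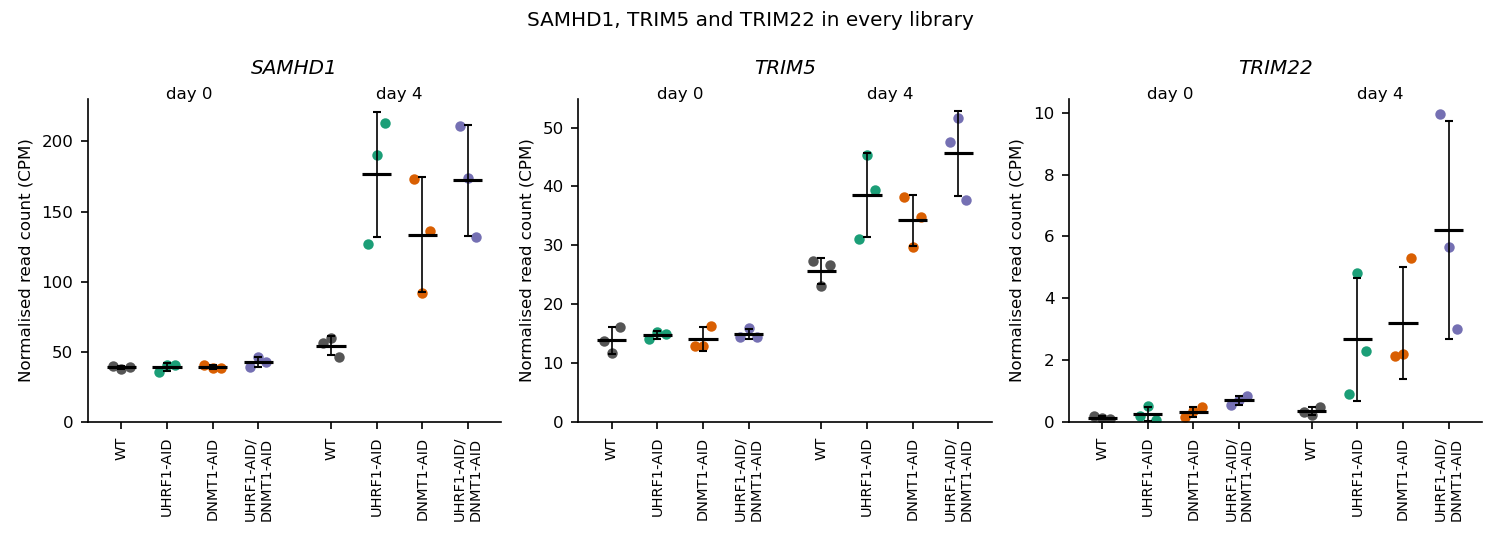
Normalised read counts (CPM, linear axis from 0) of SAMHD1, TRIM5 and TRIM22 in each of the 24 libraries, by line at day 0 and day 4. Points are libraries, the horizontal line is the mean of 3 and the bar its SD. SAMHD1 lies between 35.8 and 46.2 CPM in all day 0 libraries and between 91.8 and 213 CPM in the tagged lines at day 4.

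The APOBEC3 genes lie side by side on the plus strand of chromosome 22, from 38952741 (APOBEC3A) to 39104067 (APOBEC3H). Their transcripts did not move as a block, and the levels of the 7 genes differed widely within the cluster. Per kilobase (RPKM, CPM divided by summed exon length in kilobases), APOBEC3C, a single-domain enzyme, made up between 55.2% and 73.4% of the family in each group, and APOBEC3B, a nuclear enzyme known for mutations in tumours, was the next most abundant. The share of APOBEC3G, the best-studied inhibitor of HIV in the family, was 0.00963% in WT at day 0 and 0.113% in WT at day 4. At day 4 it was 3.80% for UHRF1-AID, 2.03% for DNMT1-AID and 8.22% in the compound line at day 4.

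**Figure D2:**
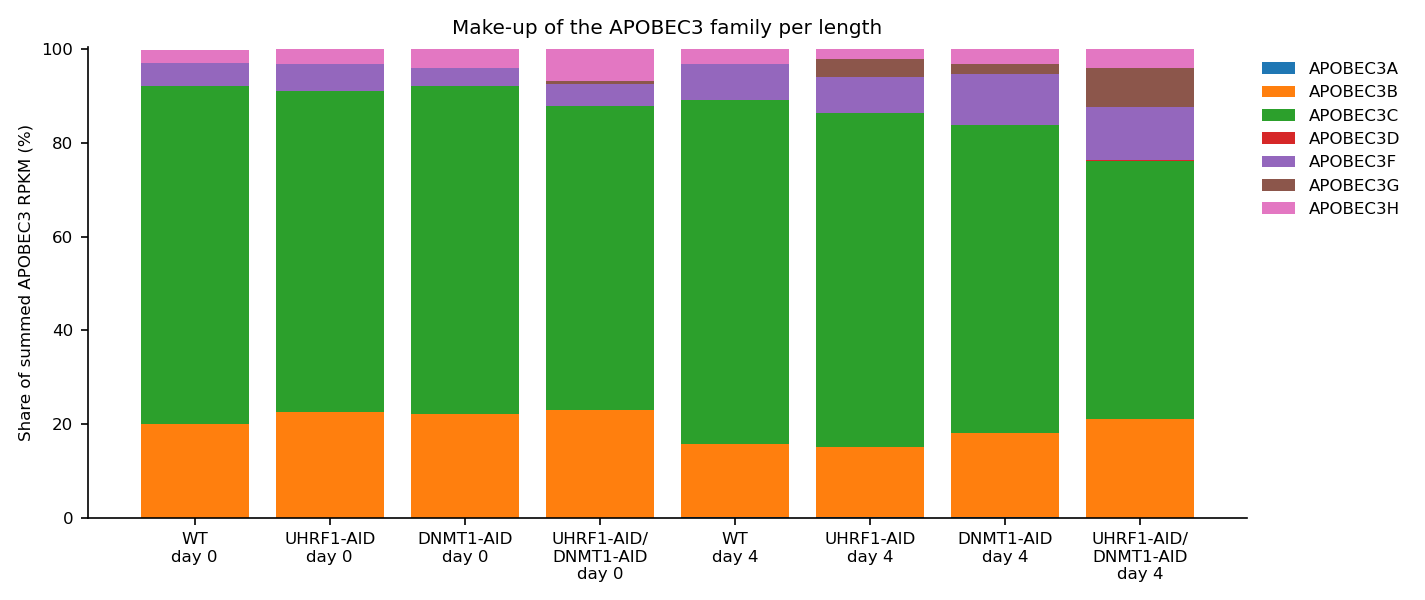
Share (%) of the 7 APOBEC3 genes in their summed RPKM, from group means, in each line at day 0 and day 4. APOBEC3C is the largest part in all 8 groups, between 55.2% and 73.4%, and APOBEC3G reaches 8.22% in the compound line at day 4.

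APOBEC3G (ENSG00000239713, 39077005 to 39087743) showed the largest fold differences from WT of the 8 members tested at day 4. Its counts were 1, 0 and 0 in WT at day 0, 0, 1 and 1 with UHRF1-AID, 9, 4 and 0 with DNMT1-AID and 9, 20 and 72 in the compound line. At day 4 they were 5, 0 and 4 in WT, 88, 177 and 171 with UHRF1-AID, 88, 72 and 45 with DNMT1-AID and 353, 373 and 189 in the compound line. Transcripts were thus at or near 0 in WT cells on both days, while all 9 tagged libraries at day 4 held 45 or more reads. The mean level at day 4 was 0.189 ± 0.168 CPM in WT, 7.07 ± 2.61 CPM in UHRF1-AID, 4.20 ± 1.14 CPM in DNMT1-AID and 19.2 ± 6.72 CPM in the compound line (SD, n = 3).

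The ratio of APOBEC3G to WT at day 4 was 37.6 (95% exact counting interval 19.6 to 82.8) in UHRF1-AID cells, 22.7 (11.7 to 50.4) in DNMT1-AID cells and 103 (53.8 to 225) in the compound line, on 9 counts in WT. The fitted log2 fold changes were 5.23 (SE 0.60, edgeR adjusted p = 0.00086), 4.44 (SE 0.52, adjusted p = 0.00013) and 6.64 (SE 0.59, adjusted p = 0.00015). Every leave-one-out fit kept these 3 calls. In the compound line at day 0 the ratio to the single read of WT was 83.6 (14.7 to 3330), and 72 of the reads behind it came from replicate 3. At that comparison APOBEC3G did not pass the filter on low counts of the edgeR fit, and DESeq2 called it with a log2 fold change of 6.26 (adjusted p = 0.0006).

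Over the 4 days APOBEC3G rose by 7.62 (SE 0.59, edgeR adjusted p = 2.0e-05) in UHRF1-AID, by 4.22 (SE 0.64, adjusted p = 0.00084) in DNMT1-AID and by 3.72 (SE 0.74, adjusted p = 0.011) in the compound line. In the compound line, where same-numbered libraries of the 2 days deviated together, the fit with the replicate number as a block gave 3.73 with an adjusted p of 0.076, so that call was lost with the pairing. The excess over the change in WT rests on the 1 read of WT at day 0. On the log2 scale it was 4.54 (SE 4.31) in UHRF1-AID, 1.21 (SE 4.52) in DNMT1-AID and 0.71 (SE 6.86) in the compound line, and none was called. With that 1 read, neither these values nor their SE are read as a measure of the excess.

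Markers of leukocytes, in which APOBEC3G is abundant, were low throughout. Their sum over 7 markers lay between 0.0643 and 0.37 CPM in WT, 1.13 and 2.19 CPM in UHRF1-AID, 0.365 and 0.714 CPM in DNMT1-AID and 1.87 and 3.13 CPM in the compound line at day 4. Of the 7, 2 averaged over 1 CPM in the compound line and none did in the other groups. PTPRC, which all leukocytes express, averaged at most 0.491 CPM, and CD68 and NKG7 were at 0 in UHRF1-AID cells and the compound line. Their part in the result was not tested. The sum of 5 fibroblast markers at day 4 lay between 3.34 and 8.88 CPM in WT, and above that in every tagged line, between 9.46 and 15.8 CPM with UHRF1-AID, 9.65 and 14 CPM with DNMT1-AID and 24.8 and 26.8 CPM in the compound line. THY1 was called higher than WT in UHRF1-AID cells, and THY1 and COL1A1 in the compound line. In bulk RNA, fewer cells of a type and less RNA per cell cannot be told apart.

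APOBEC3F (ENSG00000128394, 39040604 to 39053910), a 2-domain deaminase known for restricting retroviruses with APOBEC3G, was higher at day 4 in the lines with a tagged DNMT1. At day 0 it averaged between 4.30 CPM in DNMT1-AID and 7.04 CPM in the compound line. At day 4 its libraries held 7.52, 6.12 and 9.32 CPM in WT and 7.77, 9.19 and 8.85 CPM in UHRF1-AID cells, which overlap. They held 13.2, 13.0 and 14.6 CPM in DNMT1-AID and 15.4, 21.5 and 10.3 CPM in the compound line, all above both other lines.

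Against WT at day 4, the log2 fold change of APOBEC3F was 0.83 (SE 0.18, edgeR adjusted p = 0.012) in DNMT1-AID, 1.05 (SE 0.27, adjusted p = 0.011) in UHRF1-AID/DNMT1-AID and 0.20 (SE 0.21, adjusted p = 0.54) in UHRF1-AID cells. The compound value alone is a call, and it was kept in 2 of 6 leave-one-out fits: the adjusted p was 0.0653 without WT day 4 replicate 1, 0.0525 without WT day 4 replicate 2 and 0.0505 without UHRF1-AID/DNMT1-AID day 4 replicate 1, and the fold was 0.75 without UHRF1-AID/DNMT1-AID day 4 replicate 2. The DNMT1-AID value missed the adjusted p without WT day 4 replicate 2 (0.0961) or DNMT1-AID day 4 replicate 3 (0.0551), and passed both thresholds without WT day 4 replicate 3, at 1.01. The level in UHRF1-AID cells was lower than in DNMT1-AID cells by 0.65 (SE 0.17, adjusted p = 0.030) and that of the compound line exceeded it by 0.85 (SE 0.25, adjusted p = 0.039), both short of the fold threshold and both across alignment folders. The first passed the adjusted p only without UHRF1-AID day 4 replicate 2 and lay between 0.0791 and 0.124 without any other library. The second passed it without UHRF1-AID day 4 replicate 2 and, at 1.08, without UHRF1-AID/DNMT1-AID day 4 replicate 3, and lay between 0.108 and 0.188 without any of the other 4. Over 4 days APOBEC3F rose by 1.65 (SE 0.24, adjusted p = 0.0004) in DNMT1-AID and 1.15 (SE 0.24, adjusted p = 0.0018) in the compound line, the latter falling to 0.84 without UHRF1-AID/DNMT1-AID day 4 replicate 2.

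APOBEC3H (ENSG00000100298, 39097224 to 39104067), which is stable as protein only in some haplotypes, followed another order, with its highest levels in the compound line before auxin. Day 0 libraries held 0.782, 1.12 and 1.34 CPM in WT and 2.85, 3.61 and 5.09 CPM in the compound line, without overlap. UHRF1-AID cells held 0.898, 2.32 and 0.791 CPM and DNMT1-AID cells 1.76, 1.41 and 1.98 CPM on that day. At day 4 the group means were 1.19 CPM in WT, 0.875 CPM in UHRF1-AID, 1.51 CPM in DNMT1-AID and 2.15 CPM in the compound line.

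The compound line exceeded WT by 1.83 (SE 0.30, edgeR adjusted p = 0.023) for APOBEC3H and by 2.16 (SE 0.44, adjusted p = 0.043) for TRIM22 on the log2 scale at day 0. In that comparison TRIM22 passed the filter on low counts only through the compound line. The log2 differences stayed between 1.59 and 2.00 for APOBEC3H and between 1.97 and 2.37 for TRIM22 when each library was left out, while most of these fits missed the adjusted p. For APOBEC3H the adjusted p was 0.084 without WT day 0 replicate 1, 0.0807 without WT day 0 replicate 2, and 0.105 or 0.104 without UHRF1-AID/DNMT1-AID day 0 replicate 2 or 3. For TRIM22 it was 0.126 or 0.144 without WT day 0 replicate 1 or 2 and 0.08, 0.162 or 0.175 without UHRF1-AID/DNMT1-AID day 0 replicate 1, 2 or 3. Within the compound line the change of APOBEC3H over 4 days was -0.85 (SE 0.27, adjusted p = 0.0099), short of the fold threshold. It was -0.60 (adjusted p = 0.0727) without UHRF1-AID/DNMT1-AID day 0 replicate 3 and past both thresholds, at -1.03, without UHRF1-AID/DNMT1-AID day 0 replicate 1.

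APOBEC3B (ENSG00000179750, 38982347 to 38992804) and APOBEC3C (ENSG00000244509, 39014083 to 39020352) were measured in all libraries and had no call with all libraries in. APOBEC3B ranged from a group mean of 9.17 CPM in WT at day 4 to 19.5 CPM in the compound line at day 0. At day 4 its libraries held 10.0, 8.79 and 8.70 CPM in WT, 14.3, 12.5 and 12.2 CPM in DNMT1-AID and 19.7, 16.3 and 15.5 CPM in the compound line, and the last exceeded WT by 0.91 (SE 0.16, edgeR adjusted p = 0.00012). UHRF1-AID cells held 4.39, 16.9 and 7.90 CPM, spanning nearly the whole range, and the replicate at 16.9 CPM is the one in which long genes were lowest within its group. Without that replicate APOBEC3B was called lower at day 4 than at day 0 in UHRF1-AID cells, at -1.26 (SE 0.26, adjusted p = 0.0026), and higher in the compound line than in UHRF1-AID cells at day 4, at 1.44 (SE 0.23, adjusted p = 0.00046). APOBEC3C stayed between 54.8 and 90.4 CPM in all 24 libraries, with its highest mean, 82.2 CPM, in the compound line at day 0, and its change over 4 days in that line was -0.31 (SE 0.09, adjusted p = 0.0045).

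APOBEC3A and APOBEC3D passed the low-count filter in no comparison. APOBEC3A (ENSG00000128383, 38952741 to 38992778), an enzyme of myeloid cells, held 10 reads in all, 17 libraries were at 0, and the highest held 4. Its annotated exons share 348 bases with APOBEC3B. APOBEC3D (ENSG00000243811, 39021113 to 39033276) held 27 reads in all with 14 libraries at 0, and 14 of the 27 were in the compound line at day 4, against 2 in WT, a ratio of 7.07 (95% exact counting interval 1.62 to 64.1). Of its exon bases 83.2% also belong to ENSG00000284554, a gene on the same strand that held 0 counts in all libraries, so reads counted for APOBEC3D come from what remains or depend on how shared reads were assigned. In these libraries 3 counts, the limit that a count of 0 allows, equal between 0.119 and 0.198 CPM. With its paralogs near-identical in stretches, how multiply aligned reads were treated could also shift counts within the family, and that setting is not given in the sources used here.

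**Figure D3:**
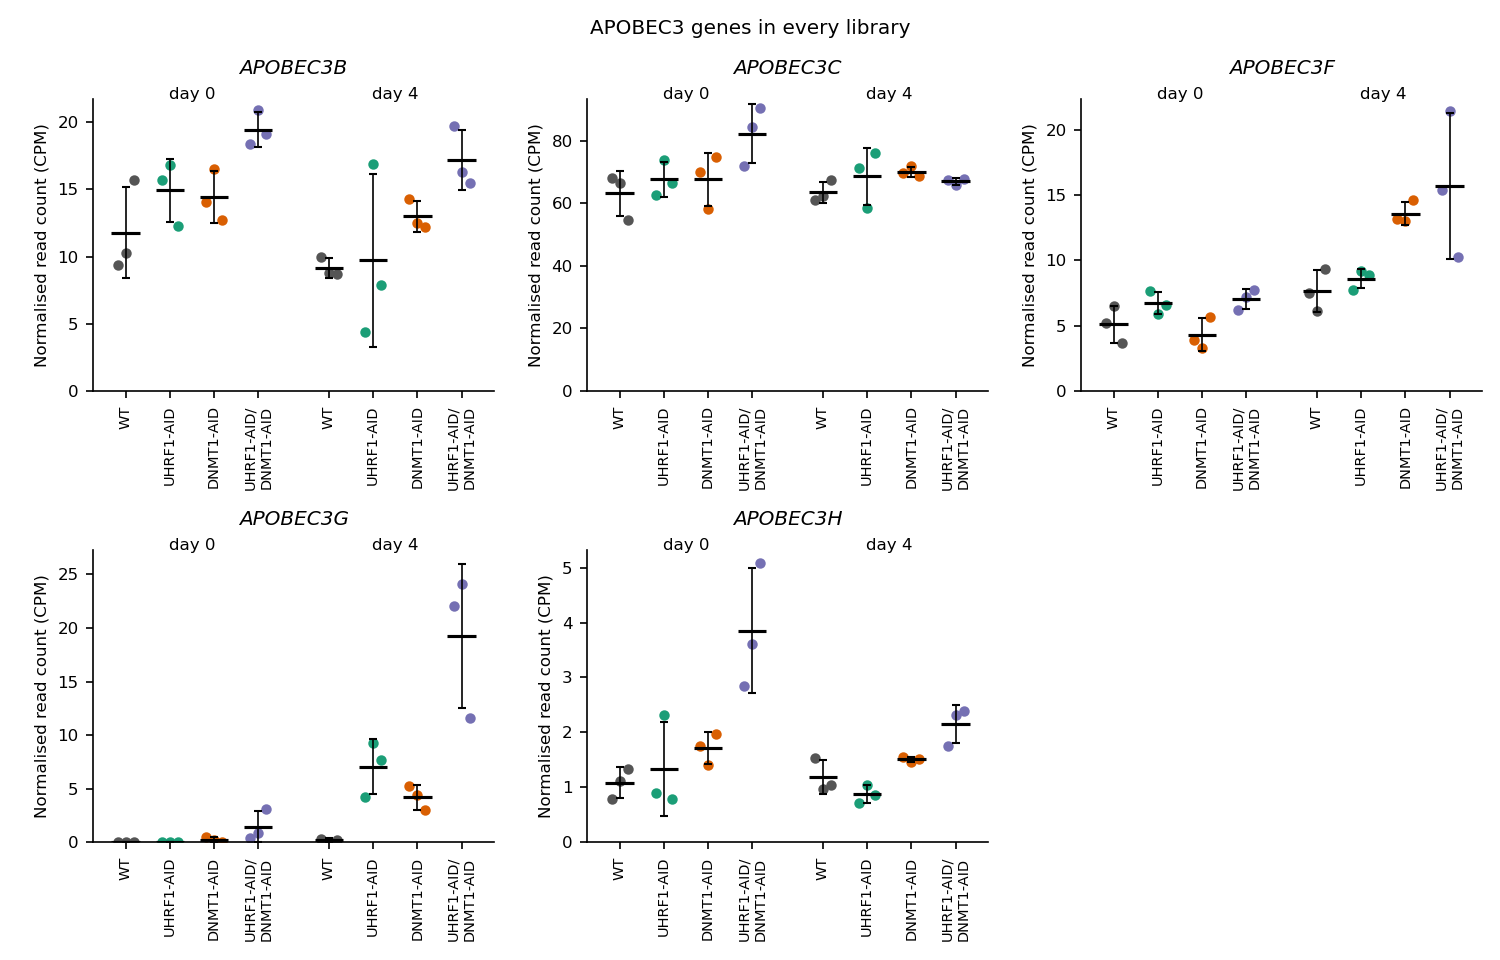
Normalised read counts (CPM, linear axis from 0) of the 5 APOBEC3 genes that passed the low-count filter, in each library, with the mean of 3 and its SD. APOBEC3G is at or under 0.321 CPM in WT on both days and between 2.97 and 24.1 CPM in the tagged lines at day 4, while APOBEC3H is highest in the compound line at day 0.

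Ordered by group mean, the levels of SAMHD1 and of TRIM5 fell into 3 sets: the 4 day 0 groups, WT at day 4, and the 3 tagged lines at day 4. Within each set neighbouring groups overlapped, and between sets they did not. For APOBEC3F the ranges of neighbouring groups were separate only between UHRF1-AID and DNMT1-AID cells at day 4, for APOBEC3G only between UHRF1-AID cells and the compound line at day 4, and for APOBEC3H only between the compound line at day 4 and at day 0. For TRIM22 the compound line at day 0 was separate from WT at day 4 below it and from UHRF1-AID cells at day 4 above it. All neighbours overlapped for APOBEC3B and APOBEC3C. Groups were ordered by these same means, and the share of all genes with such separate ranges was not computed, so the order is a description only. Changes between days were common: over 4 days in WT, 4841 of 13601 genes had an edgeR adjusted p under 0.05 with no minimum fold.

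Counted together, no member was called lower in any of the 15 comparisons. Because the list was chosen with earlier results of these data known, its counts and medians beside those of all genes are a description only. At day 0 none of 6 members tested was called in UHRF1-AID or in DNMT1-AID cells by edgeR or by DESeq2, and none had an unadjusted p under 0.05. The share of all genes called higher was 0.0% in both, where edgeR found 512 and 711 genes at an unadjusted p under 0.05 and DESeq2 called 1 and 3 genes higher. In the compound line 2 of 7 tested members were called higher at day 0, APOBEC3H and TRIM22, against 0.656% of all genes. The 92 genes behind that share became 18, 16 or 151 without WT day 0 replicate 1, 2 or 3 and 52, 17 or 12 without UHRF1-AID/DNMT1-AID day 0 replicate 1, 2 or 3. TRIM22 passed the filter on low counts in that comparison only through the compound line, the group in which it was high.

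At day 4, 3 of 8 tested members were called higher than WT in UHRF1-AID cells (5.77% of all genes), 3 of 8 in DNMT1-AID cells (2.29%) and 4 of 8 in the compound line (9.21%). Without WT day 4 replicate 3 the 311 genes behind the DNMT1-AID share became 769. APOBEC3G, SAMHD1 and TRIM22 were called in each, and APOBEC3F in the compound line as well. The members' median log2 fold change was 0.41, 0.67 and 0.98 in the same order, beside 0.03, 0.00 and 0.02 over all genes tested. APOBEC3G and TRIM22 passed the filter on low counts only through the tagged lines. Over 4 days, 0 of 6 members were called in WT (5.37%), where 2 had an unadjusted p under 0.05 and DESeq2 also called 0. In UHRF1-AID cells 4 of 8 tested members were called higher (12.1%), APOBEC3G, SAMHD1, TRIM5 and TRIM22. In DNMT1-AID (8.62%) and the compound line (15.1%), also with 8 tested, these 4 and APOBEC3F were called. APOBEC3G passed the filter on low counts in these 3 comparisons only through day 4, where it was high. So did TRIM22 in UHRF1-AID and DNMT1-AID cells.

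**Figure D4:**
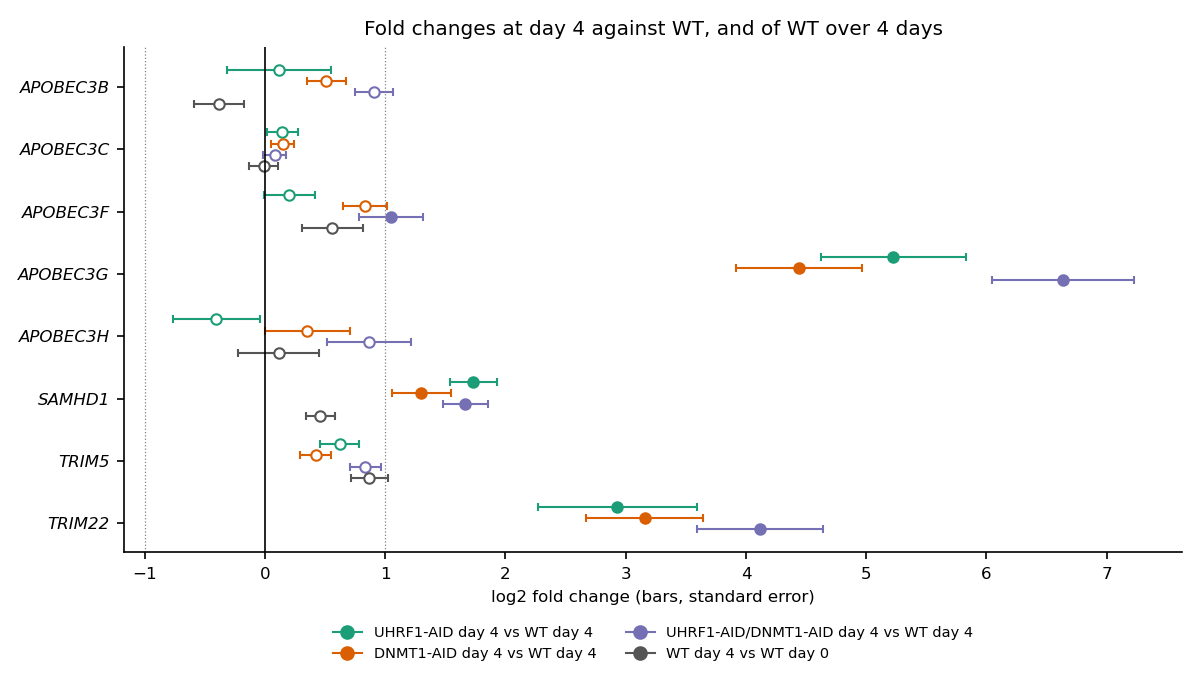
Log2 fold changes of the 8 members tested, in each tagged line against WT at day 4 and in WT over 4 days (edgeR). Bars are the SE derived from the F value of the test. Filled points passed both thresholds, open points did not, and dotted lines mark a log2 change of 1 in either direction. APOBEC3G, SAMHD1 and TRIM22 are filled in the 3 tagged lines, and no WT point is filled.

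Between the tagged lines at day 4, no member was called higher in UHRF1-AID than in DNMT1-AID cells (2.88% of all genes), and 3 of the 8 tested members, APOBEC3F, APOBEC3G and APOBEC3H, had an unadjusted p under 0.05. SAMHD1 differed by 0.41 (SE 0.25, edgeR adjusted p = 0.31), APOBEC3G by 0.75 (SE 0.32, adjusted p = 0.15) and TRIM22 by -0.25 (SE 0.57, adjusted p = 0.80). Without UHRF1-AID day 4 replicate 1, APOBEC3G was called higher in UHRF1-AID cells, at 1.02 (adjusted p = 0.041), and without UHRF1-AID day 4 replicate 2, APOBEC3B was called lower in them, at -1.07 (adjusted p = 0.0063). The compound line exceeded UHRF1-AID cells in 2 members (4.2% of all genes), APOBEC3G by 1.43 (SE 0.34, adjusted p = 0.025) and APOBEC3H by 1.28 (SE 0.33, adjusted p = 0.027). The APOBEC3G call was lost without UHRF1-AID day 4 replicate 1 (0.0539) or 3 (0.0682) or without UHRF1-AID/DNMT1-AID day 4 replicate 1 (0.0859) or 2 (0.102). The APOBEC3H call held only without UHRF1-AID day 4 replicate 2, with adjusted p of 0.0622 to 0.113 in the other 5 fits. SAMHD1 of these lines differed by -0.05 (SE 0.22) and TRIM22 by 1.20 (SE 0.61, adjusted p = 0.21). In the comparison of changes over 4 days with that of WT, SAMHD1 was the 1 member called in UHRF1-AID (2.19% of all genes), in DNMT1-AID (0.21%) and in the compound line (3.2%). The 33 genes behind the DNMT1-AID share became 329 without WT day 0 replicate 3, 468 without DNMT1-AID day 0 replicate 3, 58 without WT day 4 replicate 3 and 3 to 11 without any of the other 9 libraries of both lines. Of the genes higher at day 4, the 406 of UHRF1-AID over DNMT1-AID cells became 257 without UHRF1-AID day 4 replicate 3 and 242 or 248 without DNMT1-AID day 4 replicate 2 or 3. The 609 of the compound line over UHRF1-AID cells became 404 without UHRF1-AID day 4 replicate 1 and 365, 239 or 292 without UHRF1-AID/DNMT1-AID day 4 replicate 1, 2 or 3.

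Other genes of these pathways were measured as well. Of 25 other restriction factors, 21 were tested against WT at day 4. With UHRF1-AID 8 were called higher (5.77% of all genes), with DNMT1-AID 5 (2.29%) and in the compound line 6 (9.21%). None was called lower. SHFL, an inhibitor of viral frameshifting, rose by 1.29 (SE 0.15) in the compound line, and the membrane proteins IFITM2 and IFITM1, which block viral entry, by 1.20 (SE 0.15) and 5.19 (SE 0.43). In WT over 4 days 8 of 20 factors were called higher (5.37% of all genes) and 1 lower (888 of 13601 genes). Of 9 TRIM ligases tested, TRIM21, the cytosolic antibody receptor, was higher in UHRF1-AID and the compound line and TRIM56 in DNMT1-AID cells, 1 gene per line. The same shares of all genes apply here, and 1 call among 9 genes is not read as a result about this list. Of 7 nucleotide pool enzymes, 1 was called lower than WT at day 4 in each of 2 lines. RRM1, the large subunit of ribonucleotide reductase, fell by 1.09 (SE 0.10) in the compound line, where 354 of 14219 genes were called lower. Thymidylate synthase, TYMS, fell by 1.21 (SE 0.20) in UHRF1-AID cells, where 170 of 13958 genes were called lower.

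A reference list of 20 interferon-stimulated genes moved with the same groups. Against WT at day 4, 14 of 18 tested genes were called higher for UHRF1-AID, 15 for DNMT1-AID and 13 for the compound line. The share of all genes called higher was 5.77%, 2.29% and 9.21%. The medians of the list were 1.54, 1.44 and 1.79 on the log2 scale. The transcription factor IRF7 was higher by 1.84 (SE 0.11), the ubiquitin-like ISG15 by 1.83 (SE 0.21) and the antiviral GTPase MX1 by 6.94 (SE 0.72) in the compound line. WT cells given the same agents moved too. In them 15 of 16 tested genes were called higher at day 4 than at day 0 (5.37% of all genes), with a median of 3.04. SAMHD1 and TRIM5 gained 0.46 and 0.87 in these cells.

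Within 100 kb of a member lie 46 other genes, of which 7 were tested at day 4. TLDC2 beside SAMHD1 was the 1 called against WT in each tagged line. Of all genes, 5.77% (UHRF1-AID), 2.29% (DNMT1-AID) and 9.21% (compound line) were called higher there. TLDC2 was also called higher over 4 days in each tagged line, and in UHRF1-AID over DNMT1-AID cells at day 4. Its change over 4 days was called higher than that of WT in UHRF1-AID cells. RBL1, next to SAMHD1 and related to the retinoblastoma protein, fell by 1.06 (SE 0.14) in WT over 4 days. It averaged 27.8 CPM at day 0 and 13.5 CPM at day 4 in that line. Over 4 days RBL1 was also called lower in DNMT1-AID and the compound line, SOGA1 in UHRF1-AID cells, CBX6 in UHRF1-AID and the compound line and CBX7 in the compound line, while SOGA1 was higher in UHRF1-AID/DNMT1-AID and lower in UHRF1-AID than in the line each was compared with at day 4.

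Across the 24 libraries, which share lines, days and depth, the levels of some members followed each other. Pearson's r of log2 CPM was 0.946 for SAMHD1 with TRIM5, 0.922 for APOBEC3G with TRIM22, 0.91 for SAMHD1 with APOBEC3G and 0.763 for SAMHD1 with APOBEC3F. APOBEC3B, APOBEC3C and APOBEC3H had r between -0.113 and -0.023 with SAMHD1, and APOBEC3B and APOBEC3H had 0.687 with each other. Among the 15699 genes tested, those most like SAMHD1 were OAS2 (0.986), TRANK1 (0.983) and LGALS9 (0.981). Those most like TRIM5 were TRIM21 (0.984), TDRD7 (0.984) and CMPK2 (0.983). For APOBEC3G they were AFAP1-AS1 (0.973), MAGEA12 (0.971), which is a cancer/testis antigen, and CKM (0.967), and for TRIM22 they were TNNC1 (0.941), ARL11 (0.935) and SMIM22 (0.933). For APOBEC3F they were PML (0.948), GRINA (0.922) and TIMP2 (0.908). APOBEC3B was most like GSTP1 (0.831), FAUP4 (0.778) and PSMA2 (0.772), APOBEC3C like GATA2 (0.936), EEFSEC (0.857) and HGS (0.83), and APOBEC3H like MIB2 (0.903), KRT7 (0.871) and S100A2 (0.842).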

How the data were processed

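PolyA RNA of 24 libraries was grouped by line and day from the labels. Per the methods, the authors removed adapters with Trimmomatic, mapped paired reads to hg38 by STAR and deposited raw counts per gene from featureCounts. The strand and multiple-alignment settings are not given in the sources used here. From these counts, edgeR 4.0.16 (R 4.3.3) filtered low counts, computed TMM factors and ran quasi-likelihood tests for 12 comparisons of 2 groups, each on its own 6 libraries, and 3 of day effects on all 24. DESeq2 1.42.0, other scaling and filters, a replicate block and leaving out each library were alternatives. The code was tested on simulated data. All 10 genes are named; of other lists, up to 3 called genes per list, called neighbours within 100 kb, and the 3 most alike genes. The 10 genes and the lists were chosen with earlier results of these data known. Same-numbered libraries deviated together (all 3 correlations over 0.1) in the day comparisons of UHRF1-AID (0.157 to 0.294) and of the compound line (0.105 to 0.114). Counting intervals cover counting error only. ERCC spike-ins were left out of library sizes.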

Additional observations from a re-analysis of the deposited data

Results flagged for a closer look

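Several differences between the lines passed a test of the difference itself at an adjusted p under 0.05 with edgeR's quasi-likelihood test. At day 4 APOBEC3F in UHRF1-AID cells differed from DNMT1-AID cells by -0.65 on the log2 scale, and the compound line exceeded UHRF1-AID cells by 0.85 for APOBEC3F, 1.43 for APOBEC3G and 1.28 for APOBEC3H. These 4 compare libraries of different alignment folders, which cannot be told apart from the lines, and each missed the adjusted p in 4 or 5 of its 6 leave-one-out fits. The change of SAMHD1 over 4 days exceeded that of WT by 1.69 (UHRF1-AID), 1.28 (DNMT1-AID) and 1.53 (the compound line), and that of TRIM5 exceeded it by 0.71 in the compound line. The WT libraries are shared by the day effects, and each contains the WT change, which crosses the alignment folders. The SAMHD1 value of DNMT1-AID kept its adjusted p in 3 of 12 leave-one-out fits and the TRIM5 value in 5 of 12. Those of SAMHD1 in UHRF1-AID and in the compound line kept it in 12 of 12. With groups of 3, single libraries were not screened for outlying values.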

How the results depend on the processing

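Of 516 alternative values for 42 fold changes, 440 kept their direction and an adjusted p under 0.05, 76 kept the direction but missed that p, and 0 reversed, the fold threshold being left out of this count. Requiring at least 10 counts in every library removes APOBEC3G and TRIM22 from all comparisons that hold libraries of WT, or of UHRF1-AID or DNMT1-AID at day 0. TRIM22 stayed in the change over 4 days of the compound line, and both genes stayed between tagged lines at day 4. This filter left 1 member called in the compound line against WT at day 0, 1 in UHRF1-AID and 1 in DNMT1-AID cells and 2 in the compound line against WT at day 4. Over 4 days it left 2 in UHRF1-AID and 3 in DNMT1-AID cells. With no minimum fold, 2 were called in WT over 4 days, 1 between UHRF1-AID and DNMT1-AID cells and 2 in the day effect of the compound line. The DNMT1-AID day effect had 2 without a filter, 0 with only the 12 libraries of both lines and 0 with the replicate block. Leaving out 1 library gave 0 to 2 calls in the compound line at day 0, 2 to 3, 2 to 4 and 3 to 4 at day 4 against WT (UHRF1-AID, DNMT1-AID, compound), 4 to 5, 5 and 4 to 6 over 4 days, 0 to 1 between UHRF1-AID and DNMT1-AID cells, 0 to 3 between the compound line and UHRF1-AID cells, and 0 to 2, 1 and 1 in the day effects of DNMT1-AID, UHRF1-AID and compound lines. The replicate block left 1 call in the compound line at day 0, with TRIM22 at an adjusted p of 0.0965. In comparisons whose libraries share only a number (correlations -0.739 to 0.337) the block also moved SAMHD1 in DNMT1-AID cells against WT to 0.0505 and its day effect to 0.076. In the paired comparisons it changed no call but that of APOBEC3G in the compound line (0.076). The cause of these changes was not tested. Depth limits APOBEC3A, APOBEC3D, APOBEC3G and TRIM22, which lie near 3 counts in WT cells.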
